A study of Canis lupus familiaris with 10 samples.

Results

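miR-378 is 1 of the 320 miRNAs counted in canine lymph nodes, listed under the name cfa-miR-378 without an arm. It was chosen with its measured levels in these 10 libraries in view, namely its difference between diffuse large B-cell lymphoma (DLBCL) and healthy nodes and its relation to other miRNAs within DLBCL. Its own levels are therefore given as a description, with no test. The 10 libraries of small RNA came from as many dogs, each made from a fresh-frozen node. The DLBCL group held 6 libraries (DLBCL1 to DLBCL6) from dogs that came to the clinic as patients, whose nodes were removed surgically under anesthesia. The healthy group held 4 libraries (Healthy2 to Healthy5) from purpose-bred dogs, which were euthanized in teaching laboratories and whose nodes were normal on histology. By the study's supplement, all healthy dogs were female hound crosses less than a year old. The patients were of both sexes and several breeds, and their ages are not listed. Origin, housing and the way of sampling follow the diagnosis, and sex and breed do so in part, so that they and the disease cannot be told apart. No treatment is named in the labels.

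A miRNA is a short RNA that binds partly matching sites in mRNAs and lowers their translation or stability. The miR-378 gene lies within an intron of PPARGC1B, which encodes PGC-1β, a coactivator of mitochondrial and oxidative metabolism genes, and miR-378 is abundant in skeletal muscle, heart and brown fat. In cell models the transcription factor MYC raises miR-378, which lowers TOB2, an antiproliferative protein. In the RefSeq annotation of the dog assembly UU_Cfam_GSD_1.0, 1 gene was named MIR378, and the span of 1 gene, PPARGC1B, held it. The reads had been mapped to another assembly, CanFam3.1, and no coordinates are given for that reason.

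Between 10686441 and 25784861 reads per DLBCL library and between 30432969 and 34709421 per healthy library were counted on miRNAs. miR-148a alone took 17.8% to 39.0% of them in DLBCL and 51.5% to 73.6% in healthy nodes, so that any value relative to the total depends on how this miRNA is treated. The lymphoid miRNAs miR-142 and miR-155 were abundant in both groups, at 5395 ± 1262 and 7564 ± 4699 CPM (counts per 1e6 reads) in DLBCL (SD, n = 6) and 4640 ± 1005 and 5591 ± 1616 CPM in healthy nodes (SD, n = 4). The other lymphoid miRNAs listed, miR-146a, miR-150, miR-181a and miR-342, had lower mean levels in DLBCL than in healthy nodes. For miR-150 these were 1009 ± 488 CPM in DLBCL (SD, n = 6) and 7916 ± 5434 CPM in healthy nodes (SD, n = 4). The red blood cell miRNAs (miR-144, miR-451, miR-486 and miR-486-3p) summed to 5740 to 48886 CPM in DLBCL and to 873 to 1278 CPM in healthy nodes. Base quality (Q30) was in the higher of 2 groups for DLBCL1, DLBCL2, DLBCL3 and DLBCL5, and in the lower group for all other libraries.

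In CPM, miR-378 was higher in every DLBCL node than in every healthy node. CPM values here are relative to the TMM-adjusted library size, which edgeR sets so that most miRNAs have similar levels across libraries. The 6 DLBCL libraries held 5357, 3838, 12506, 3203, 4563 and 7096 CPM (DLBCL1 to DLBCL6). The 4 healthy libraries held 1801, 1788, 2007 and 1486 CPM (Healthy2 to Healthy5). DLBCL3 was the highest library and DLBCL4 the lowest of the tumours, and the groups did not overlap. The lowest DLBCL library was 1.60 times the highest healthy library. Of the 247 miRNAs that passed the filter on low counts, 17 (6.88%) had every DLBCL library above every healthy library in CPM, miR-378 among them. In bulk tissue, more cells of a type and more of the miRNA per cell cannot be told apart.

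These levels rest on many reads. Between 64012 and 286407 reads were counted on miR-378 in the DLBCL libraries, and between 31662 and 50682 in the healthy ones. The Wilson 95% interval of its share of miRNA reads was at most 1.10% of the value to either side, which covers counting error only. By read number miR-378 ranked from 13 to 26 of the 320 miRNAs in DLBCL libraries and from 29 to 35 in healthy libraries. It made up 0.748% ± 0.412 of miRNA reads in DLBCL (SD, n = 6) and 0.135% ± 0.0339 in healthy nodes (SD, n = 4).

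**Figure D1:**
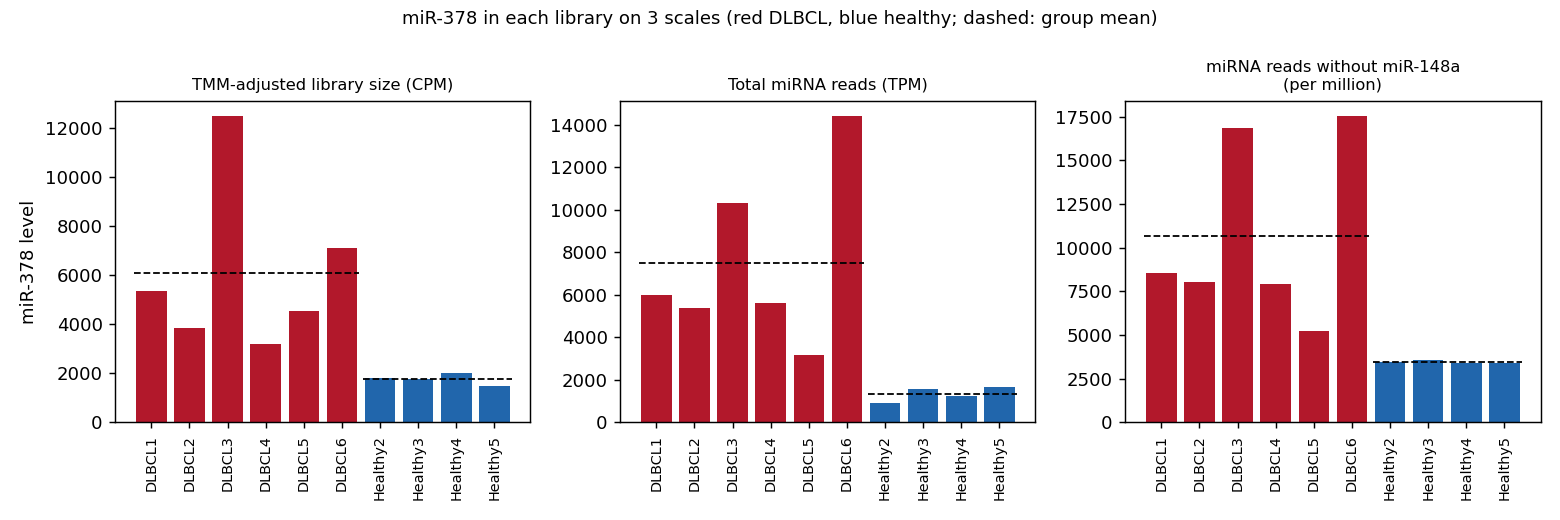
Level of miR-378 in each library, in CPM on the TMM scale, in TPM of total miRNA reads, and per 1e6 reads without miR-148a; bars are libraries and dashed lines group means. All 6 DLBCL bars stand above all 4 healthy bars on each scale, while the highest tumour is DLBCL3 at 12506 CPM on the TMM scale and DLBCL6 at 14420 TPM.

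The separation was present on all 4 scales of library size computed, but the order of the tumours was not the same on each. In the deposited TPM values, which divide by all miRNA reads, the DLBCL libraries stood at 5990, 5399, 10304, 5594, 3186 and 14420, and the healthy libraries at 912, 1583, 1256 and 1648. DLBCL6 rather than DLBCL3 was then highest, and DLBCL5 rather than DLBCL4 was lowest. Relative to the reads left without miR-148a, on the same per 1e6 basis, the DLBCL libraries stood at 8544, 8034, 16880, 7920, 5208 and 17553. The healthy libraries stood at 3453, 3571, 3397 and 3401, within a coefficient of variation (CV) of 2.35%. DLBCL3 and DLBCL6 were the highest pair on all 3 of these scales, with DLBCL1 next, and DLBCL2, DLBCL4 and DLBCL5 changed places below them. The lowest DLBCL library was 1.93 times the highest healthy one in TPM, 1.56 times with DESeq2's size factors, and 1.46 times without miR-148a.

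The groups overlapped on 1 scale. Relative to the mean log2 reads of miR-361, miR-101 and miR-29c, which the study used as references for RT-qPCR, miR-378 stood at 5.04, 4.73, 6.36, 3.60, 4.88 and 4.73 in DLBCL1 to DLBCL6. The healthy libraries stood at 4.32, 3.72, 3.72 and 3.16 on this log2 scale. DLBCL4 lay within the healthy range, and the other 5 tumours lay above it. The mean was 4.89 ± 0.88 in DLBCL (SD, n = 6) and 3.73 ± 0.47 in healthy nodes (SD, n = 4). Of these references, miR-29c had a fitted log2 difference of 1.92 between the groups (adjusted p = 0.109, edgeR), against -0.24 for miR-361 and -0.03 for miR-101. The study also measured miR-378a-3p by RT-qPCR. There its difference between DLBCL and healthy nodes was positive but not significant after adjustment, and it was weighed as a candidate reference. The counted name has no arm, so whether both are the same product is not known.

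The mean level was 6094 ± 3419 CPM in DLBCL (SD, n = 6) and 1771 ± 215 CPM in healthy nodes (SD, n = 4). edgeR fitted a log2 fold change of 1.78 ± 0.43 (SE) for miR-378, the 32nd largest rise among the 247 miRNAs, whose median log2 fold change was 0.13. miR-378 was among the 9 miRNAs (3.64%) called higher in DLBCL at an adjusted p under 0.05 and a log2 fold change over 1, and 5 were called lower. Since it was chosen on this contrast, nothing is read from that call. The call was lost without DLBCL1 and without any of the 4 healthy libraries, while the fold change itself stayed between 1.48 (without DLBCL3) and 2.02 (without DLBCL4) when a library was left out. The Q30 group as a covariate gave 1.54 and ended the call, and the lower Q30 libraries alone gave 1.53. Within DLBCL, the 4 libraries of higher Q30 averaged 6566 CPM and ranged from 3838 to 12506, and both of lower Q30 (3203 and 7096 CPM) lay above all healthy libraries, which are of lower Q30 too.

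**Figure D2:**
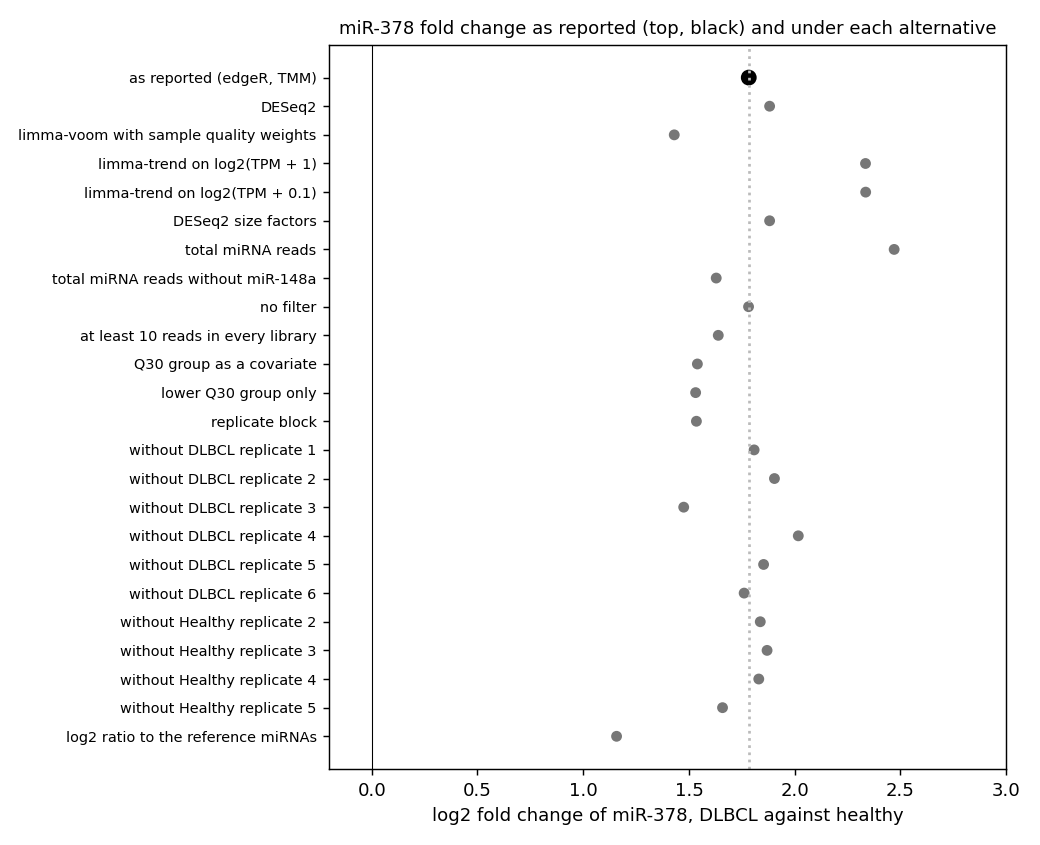
Log2 fold change of miR-378, DLBCL against healthy, as reported (1.78, black) and under each alternative (grey). Every value lies above 0, from 1.16 as a ratio to the reference miRNAs to 2.47 with total miRNA reads.

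miR-378 varied more among the tumours than among healthy nodes. The SD of its log2 CPM was 0.71 in DLBCL and 0.18 in healthy nodes, and its CV in CPM was 56.1% and 12.1%. Most miRNAs were more variable still. Its SD was the 59th smallest of 247 miRNAs in DLBCL, where the median was 1.07, and the 16th smallest in healthy nodes, where the median was 0.54. Among the 40 miRNAs within 4-fold of its mean level it ranked 17th in DLBCL (median 0.78) and 8th in healthy nodes (median 0.37). Without DLBCL3 the SD in DLBCL was 0.44.

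By mean CPM miR-378 was the 18th most abundant miRNA of the 247 in DLBCL and the 33rd in healthy nodes. Its neighbours in DLBCL were miR-27b at 6722 ± 3752 CPM and miR-186 at 5912 ± 2281 CPM (SD, n = 6), neither apart from miR-378 by more than the spread between dogs. In healthy nodes they were miR-363 at 2013 ± 400 CPM and miR-92a, of the miR-17/92 cluster, at 1620 ± 426 CPM (SD, n = 4), again within the spread. Mature miRNAs are of similar length, so that no length correction was made.

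Across the 6 DLBCL libraries, Pearson's r of log2 CPM with miR-378 was computed for each of the other 246 miRNAs. These relations were in view when miR-378 was chosen, so that r and Spearman's rho are a description and no test is given for a single miRNA. r was positive for 101 and negative for 145, with a median of -0.22. With 6 libraries the 720 pairings of an exact permutation test can give no p below 0.00139, which adjusted alone over 246 miRNAs is 0.342, so that single relations cannot be set apart at this size. On the scale of total miRNA reads 184 were positive and 62 negative, with a median of 0.22, so that the sign of a typical r depended on the scaling. Within DLBCL, miR-378 itself had an r of -0.32 with the log2 TMM factor, 0.47 with the log2 number of miRNA reads and 0.10 with the miR-148a share (n = 6 each).

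**Figure D3:**
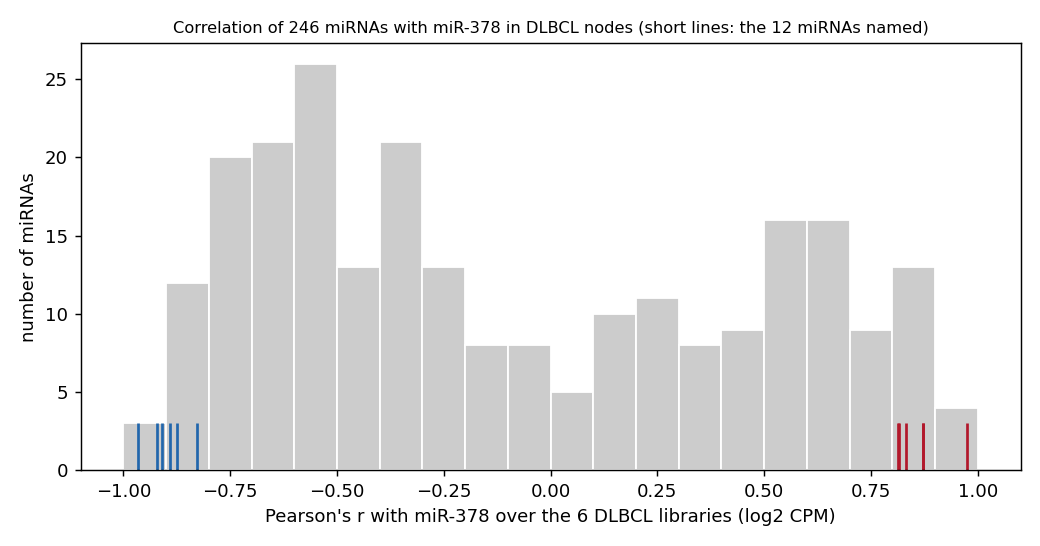
Number of miRNAs by Pearson's r with miR-378 over the 6 DLBCL libraries (log2 CPM, TMM scale). Short red and blue lines mark the 6 highest and 6 lowest values among miRNAs of at least 100 CPM, from 0.97 for miR-197 to -0.97 for miR-181a.

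By Pearson's r, miR-197 had the pattern most like miR-378. Among the 98 miRNAs with a mean of at least 100 CPM, the 6 highest values of r were those of miR-197, miR-9, miR-1839, miR-532, miR-185 and miR-28. miR-197 stood at 147, 101, 576, 90.6, 148 and 185 CPM in DLBCL1 to DLBCL6, so that DLBCL3 was highest and DLBCL4 lowest, as for miR-378. Its r was 0.97 and its rho 0.94 over n = 6. Without DLBCL3 and DLBCL4, the libraries farthest from the median of miR-378, r was 0.92, and on the scale of total miRNA reads it was 0.93. Between DLBCL and healthy nodes miR-197 did not pass the test, with a fitted log2 fold change of -0.18 ± 0.57 (SE; adjusted p = 0.859, edgeR).

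miR-9 and miR-1839 also kept a positive r without those libraries. miR-9, which is known to target the plasma cell regulator PRDM1, ranged the most, from 13.0 CPM in DLBCL2 to 1854 CPM in DLBCL3, against 58.8 to 96.8 CPM in healthy nodes. Its r was 0.87 and its rho 0.94 (n = 6), and r was 0.92 without DLBCL3 and DLBCL4. miR-1839 ranged from 244 CPM in DLBCL2 to 1785 CPM in DLBCL3, and from 110 to 202 CPM in healthy nodes. Its r was 0.87 and its rho 0.89 (n = 6), and r was 0.73 without both libraries and 0.63 without DLBCL3 alone. miR-1839 rose in DLBCL (log2 fold change 2.19 ± 0.57 SE, adjusted p = 0.0397, edgeR), while miR-9 did not pass the test (2.81 ± 1.10, adjusted p = 0.121).

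The relation to miR-532, miR-185 and miR-28 rested on DLBCL3. Their r was 0.83, 0.81 and 0.81 (n = 6) and their rho 0.77, 0.71 and 0.71. Without DLBCL3 r was 0.37, 0.22 and 0.24, and without DLBCL3 and DLBCL4 it was -0.09, 0.00 and -0.04. In DLBCL3 miR-532 reached 10345 CPM, against 1392 to 3778 CPM in the other tumours and 1043 to 1827 CPM in healthy nodes. miR-28, a miRNA of germinal centre B cells, reached 2158 CPM in DLBCL3, against 388 to 740 CPM in the other tumours. miR-532 belongs to a group of 6 miRNA genes on the X chromosome within CLCN5 (miR-188, miR-362, miR-500, miR-502, miR-532 and miR-660), a list added after these values were seen. Of that group 3 had a positive and 3 a negative r, and 0 were called in either direction.

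**Figure D4:**
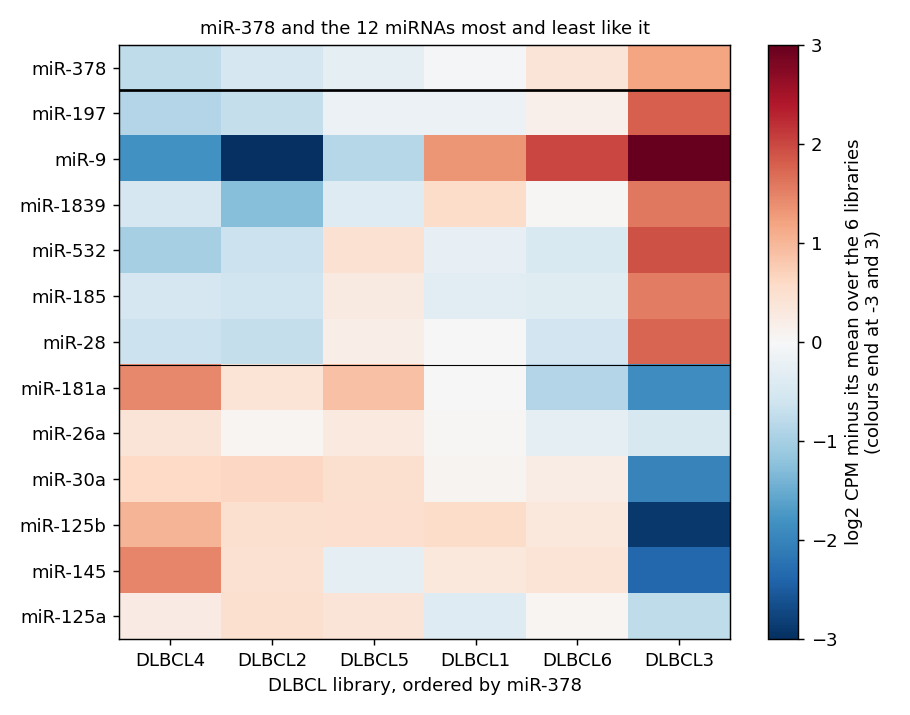
Log2 CPM of miR-378 and the 12 named miRNAs in each DLBCL library, minus each miRNA's mean over the 6 libraries, with libraries ordered by miR-378 from DLBCL4 to DLBCL3. The 6 upper miRNAs are highest in DLBCL3, whereas among the 6 lower ones DLBCL3 holds the lowest value, as for miR-181a at 210 CPM.

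The 6 lowest values of r were those of miR-181a, miR-26a, miR-30a, miR-125b, miR-145 and miR-125a. miR-181a, which acts in lymphocyte development, stood at 775, 1019, 210, 2063, 1397 and 417 CPM in DLBCL1 to DLBCL6, so that it was lowest where miR-378 was highest. Its r was -0.97 and its rho -0.94 (n = 6), and r was -0.86 without DLBCL3 and DLBCL4. miR-26a, which lowers the histone methyltransferase EZH2, lay between 12837 and 23486 CPM, with an r of -0.92 and a rho of -0.94 (n = 6). miR-30a, another miRNA that targets PRDM1, stood at 1249 CPM in DLBCL3 and lay between 5348 and 7786 CPM in the other tumours. Its r was -0.91 and its rho -0.89 (n = 6).

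miR-125b and miR-125a, relatives known from blood stem cells, had an r of -0.89 and -0.83, and miR-145, of smooth muscle and vessels, had -0.88 (n = 6). Their rho was -0.77 each. Without DLBCL3 and DLBCL4, r was -0.76 for miR-26a, -0.79 for miR-30a, -0.62 for miR-125b and -0.57 for miR-125a, but 0.19 for miR-145, whose relation rested on those libraries. The negative relations were also those that changed most with the scaling. On the scale of total miRNA reads r was -0.44 for miR-181a, -0.19 for miR-125b, -0.14 for miR-30a, -0.02 for miR-145, 0.03 for miR-26a and 0.05 for miR-125a, whereas for the 6 miRNAs of highest r it stayed between 0.67 and 0.93. None of the 6 passed the test between DLBCL and healthy nodes (log2 fold changes from -1.49 for miR-181a to -0.30 for miR-145, adjusted p from 0.114 to 0.769, edgeR).

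**Figure D5:**
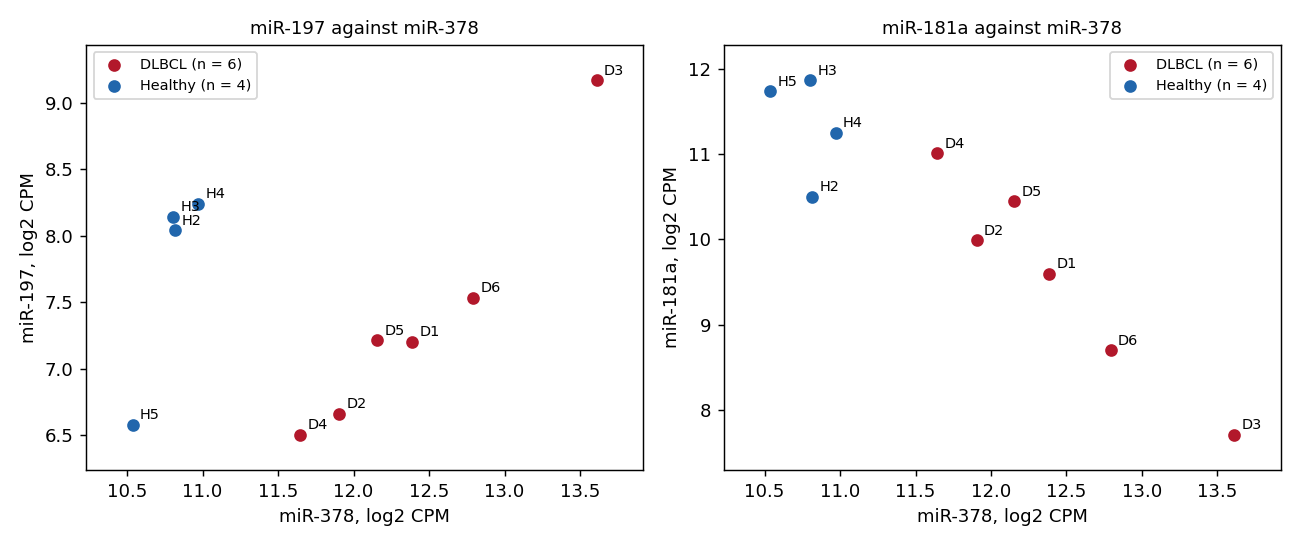
Log2 CPM of miR-197 (left) and miR-181a (right) against that of miR-378, 1 point per library (D, DLBCL; H, healthy). Over the 6 DLBCL points r is 0.97 and -0.97; the healthy points lie to the left, between 1486 and 2007 CPM of miR-378.

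A ratio of reads within a library does not depend on the scaling. There were 21.7 to 38.3 reads of miR-378 per read of miR-197 in the DLBCL libraries and 6.32 to 15.6 in the healthy ones, without overlap. The mean ratio was 33.4 ± 6.34 in DLBCL (SD, n = 6) and 8.83 ± 4.48 in healthy nodes (SD, n = 4). Per read of miR-181a there were 1.55 to 59.7 reads of miR-378 in DLBCL and 0.434 to 1.24 in healthy nodes, and per read of miR-26a 0.136 to 0.974 and 0.0566 to 0.0714. For 8 of the 12 named miRNAs every DLBCL ratio lay above every healthy ratio, and the exceptions were miR-9, miR-1839, miR-532 and miR-145. Over the 222 miRNAs with reads in every library the count was 81 (36.5%).

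The SD of the log2 ratio across the 6 tumours gives a likeness that needs no scaling, and was added after the data were seen. It was smallest for miR-328 at 0.20, a miRNA of low level (13.5 ± 6.84 CPM in DLBCL, SD, n = 6, and 6.98 ± 0.93 CPM in healthy nodes, SD, n = 4). miR-328 also ordered the 6 tumours exactly as miR-378 did (rho 1, r 0.96, and r 0.97 on total miRNA reads), and was nearer to it than miR-197 by each of these but r in CPM. The SD was 0.31 for miR-197, the second smallest of 246 miRNAs and the smallest of those with at least 100 CPM. The next with at least 100 CPM were miR-185 at 0.47 (8th of 246), miR-500 at 0.48, miR-1839 at 0.51, miR-140 at 0.51 and miR-92a at 0.53. miR-9 had an SD of 2.08 and ranked 195th, since its levels ranged far more widely than those of miR-378. miR-197, miR-185 and miR-1839 were thus near miR-378 by both measures over the 6 tumours. Without DLBCL3, however, r was 0.96 for miR-197, 0.63 for miR-1839 and only 0.22 for miR-185.

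The miRNAs known to be induced by MYC, those of the miR-17/92 cluster, had positive fold changes in DLBCL, as miR-378 did, but mostly a negative r with it among the tumours. All 6 measured members had a positive log2 fold change, with a median of 1.80 against 0.13 over all 247, and 0 passed the test in either direction. The nearest was miR-92a at 1.81 ± 0.50 (SE; adjusted p = 0.0565, edgeR). Within DLBCL, r with miR-378 was positive for miR-92a alone (0.78) and negative for the other 5, down to -0.73 for miR-17, with a median of -0.65. miR-20a stood at 845 CPM in DLBCL3, its lowest tumour, and at 5453 CPM in DLBCL4, its highest, the reverse of miR-378. DLBCL6, next to DLBCL3 in miR-378 at 7096 CPM, was next to DLBCL4 in miR-20a at 4446 CPM. The negative r of miR-20a thus rested on DLBCL3 and DLBCL4. Without those libraries the r of miR-92a was 0.03.

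The 19 miRNAs of the list repressed by MYC were spread on both sides. Of them 1 was called higher (miR-34a, 4.0 ± 1.05) and 2 lower (miR-150, -2.97 ± 0.50, and miR-146a, -1.46 ± 0.35; log2 fold change ± SE, adjusted p = 0.0397, 0.00687 and 0.0397, edgeR). miR-34a is a target of p53, miR-150 a miRNA of mature lymphocytes and miR-146a a brake on NF-κB signalling. Over all 247 miRNAs 9 (3.64%) were called higher and 5 (2.02%) lower. The list's median log2 fold change was -0.07, against 0.13. Its r with miR-378 was positive for 6 and negative for 13, with a median of -0.34 against -0.22 over all 246.

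Markers of the tissues in which miR-378 is abundant differed in level. Of the 7 muscle miRNAs listed, 4 passed the filter (miR-1, miR-133c, miR-206 and miR-499), and miR-133b, miR-208a and miR-208b did not. miR-1, the most abundant miRNA of muscle, stood between 7.16 and 301 CPM in DLBCL, highest in DLBCL3, and between 9.76 and 53.5 CPM in healthy nodes. There were thus 41.5 to 447 reads of miR-378 per read of miR-1 in DLBCL and 33.6 to 183 in healthy nodes. None of the 4 muscle miRNAs was called between the groups. r with miR-378 was 0.82 for miR-1, 0.93 for miR-206 and 0.46 for miR-133c, but -0.61 for miR-499, the most abundant of the list here at 1244 ± 986 CPM in DLBCL (SD, n = 6). In the same order rho was 0.66, 0.71, 0.37 and -0.71. Outside DLBCL3, miR-1 reached at most 66.4 CPM in a tumour. miR-206 stood at 51.0 CPM in DLBCL3 and at most 8.95 CPM in the other tumours. Per read of miR-499 there were 1.44 to 26.7 reads of miR-378 in DLBCL and 2.51 to 2.91 in healthy nodes, so that miR-499 was not low beside it. Their summed level was 677 to 3238 CPM in DLBCL and 609 to 770 CPM in healthy nodes, and its part in the level of miR-378 was not tested.

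The brown fat miRNAs miR-193b, miR-365 and miR-455 were lowest in DLBCL3, the tumour with the most miR-378 in CPM. All 3 had a negative r with miR-378, from -0.86 for miR-365 to -0.62 for miR-193b, and 0 of 3 were called between the groups (median log2 fold change -0.73). Their rho was -0.66 for miR-365, -0.43 for miR-455 and -0.26 for miR-193b. In DLBCL6, next to DLBCL3 in miR-378, miR-455 stood at 428 CPM. miR-193b was near the floor, at most 0.89 CPM in a tumour, and highest in DLBCL6. The summed level of the 3 was 47.8 to 472 CPM in DLBCL and 292 to 511 CPM in healthy nodes, so that it was not higher in the tumours.

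Markers of other cells moved with miR-378 to different degrees. Of the 4 red blood cell miRNAs, 3 (miR-451, miR-486 and miR-486-3p) were called higher, against 9 of all 247 (3.64%), and miR-144 did not pass the test (adjusted p = 0.139, edgeR). The list's median log2 fold change was 4.70. Of the 3, miR-486 at 3840 ± 6717 CPM and miR-486-3p at 3762 ± 6580 CPM in DLBCL (SD, n = 6) had nearly equal levels, and whether they are separate measurements, rather than 1 counted under both names, is uncertain. Within DLBCL their r with miR-378 was 0.08 for miR-451, 0.68 for miR-486 and -0.50 for miR-144, and the library highest in miR-451 was DLBCL1, at 33752 CPM, rather than DLBCL3. All 7 tested miRNAs of stroma and vessels had a negative r with miR-378 (median -0.66) and 0 were called. miR-223, the myeloid miRNA, had an r of -0.89 and stood at 3.95 CPM in DLBCL3 and 88.3 CPM in DLBCL4. Of the 4 tested epithelial miRNAs 3 had a positive r (median 0.55), at a summed level of 18.7 to 188 CPM in DLBCL and 22.2 to 36.8 CPM in healthy nodes. Of the 6 lymphoid miRNAs 5 had a negative r, with a median of -0.18 that was no lower than the -0.22 over all 246, of which 145 were negative. Of these 6, 2 were called lower, against 5 of all 247 (2.02%). The part of these cells in the level of miR-378 was not tested.

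Among the other miRNAs called higher in DLBCL, 6 of 8 had a positive r with miR-378 within DLBCL (median 0.47), and of the 5 called lower 4 had a negative r (median -0.57). Over all 246 miRNAs r was positive for 101 and negative for 145, with a median of -0.22. On total miRNA reads 184 were positive and 62 negative. The positive values among those called higher include miR-486 and miR-486-3p (0.68 each), which may be 1 measurement, and miR-451 at 0.08. These values are a description over n = 6 libraries, and no pattern is read from them.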

How the data were processed

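Small RNA libraries of 6 DLBCL and 4 healthy canine lymph nodes were analysed. The authors mapped reads with Bowtie 0.12.9, removed repeats and other small RNAs, counted miRBase miRNAs with miRDeep2, and deposited raw read counts of 320 miRNAs. The deposited TPM values are the same counts divided by the total miRNA reads and scaled. The authors' comparison used DESeq2 1.12.0, per the submitters' processing notes.

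The counts were fitted with edgeR 4.0.16 in R 4.3.3 (TMM, default filter on low counts, quasi-likelihood test, Benjamini-Hochberg adjustment over 247 miRNAs, thresholds of 0.05 and of 1 on the log2 scale). The biological coefficient of variation was 0.731. Log2 CPM used a prior count of 2. Correlations over the 6 DLBCL libraries are Pearson's r and Spearman's rho, given as a description. The tests were checked on simulated counts. Alternatives used DESeq2 1.42.0 and limma 3.58.1, other scalings and filters, Q30 group, replicate block and each library left out. No pair of libraries of a group agreed within sampling noise.

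miR-378 and all lists were chosen with earlier results of these data known. Besides miR-378, the miRNAs named are the 6 highest and 6 lowest by r among those of at least 100 CPM, the neighbours in level, and list members. miR-29c, miR-361, miR-101, miR-500, miR-140 and miR-328 were named after their values were seen. miRNAs that share its seed were not analysed here. The Q30 groups come from the study's read statistics. Plots were drawn with matplotlib 3.10.9.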

Additional observations from a re-analysis of the deposited data

Results flagged for a closer look

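In each group, the miRNAs named by r and miR-378 were screened for a library apart from the rest, as the gap to its nearest neighbour divided by the group's range in CPM. Chance alone marks about 1 in 20 groups where the miRNAs were not chosen by their values and these are normally distributed. CPM was not transformed and its distribution was not checked, so the rate is approximate. In all, 26 groups were screened. miR-378 was marked in neither group. DLBCL3 stood apart as the highest library for miR-197 (0.805), miR-28 (0.801), miR-185 (0.753) and miR-532 (0.733), and as the lowest for miR-30a (0.627). Healthy3 stood apart as the lowest healthy library for miR-30a (0.917). DLBCL3 thus stood apart for 5 of the 12 miRNAs named by r, and it was also the library with the highest miR-378 on the TMM scale. These 12 were picked by r with miR-378 over the same DLBCL libraries. An extreme DLBCL3 is therefore partly built into the choice, and the rate of 1 in 20 does not apply to it.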

How the results depend on the processing

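The log2 fold change of miR-378 (1.78) was positive under all alternatives and moved beyond the spread between dogs with total miRNA reads (2.47) and as a ratio to the reference miRNAs (1.16). It was 1.54 with the replicate block, where the shared numbers only name the dogs (correlation of same-numbered libraries 0.26, -0.01, -0.30 and -0.33), and 1.48 to 2.02 without each library. Its call was lost with DESeq2's size factors, the Q30 covariate and the replicate block, and held in the other 9 of 12 fits and in 5 of 10 that left out a library. The count of called miRNAs (14) was 41 with DESeq2, 46 with limma-voom, 21 and 24 with limma-trend (pseudocounts of 1 and 0.1), 8 with DESeq2's size factors, 23 with total reads, 7 with the Q30 covariate, 46 in the lower Q30 libraries, 1 with the replicate block, and 1 (without Healthy4) to 23 (without DLBCL4) with a library left out. On total reads 22 of 23 were higher, against 9 of 14. The mean level was 1350 in healthy nodes with total reads, and 3455 and 10690 (DLBCL) without miR-148a. The log2 SD among the tumours was 0.44 (without DLBCL3) to 0.79 (without DLBCL1). r turned for miR-26a (0.029) and miR-125a (0.053) on total reads, and for miR-532 (-0.094), miR-28 (-0.036) and miR-145 (0.19) without DLBCL3 and DLBCL4. Counting error is small at these depths, and the precision is set by the number of dogs.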
